A study of Mus musculus with 11 samples.

Results

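Collagens of the interstitium, the space between the tubules and vessels of the kidney, were described across 11 whole-kidney mRNA libraries of 129X1/SvJ mice at 5.5 weeks of age. The 10 genes were taken by name from the 24914 rows of each library's count file: Col1a1, Col1a2, Col3a1, Col5a1, Col5a2, Col6a1, Col6a2, Col6a3, Col8a1 and Col12a1. All 10 had reads in all 11 libraries and passed the filter on low counts, which left 14380 loci to test. There were 3 groups. HET PBS held 3 heterozygous kidneys (Col4a3+/-) after PBS, KO PBS held 4 knockout kidneys (Col4a3-/-) after PBS, and KO antimiR-21 held 4 knockout kidneys (Col4a3-/-) after antimiR-21, a compound that inhibits miR-21. All 11 libraries thus carry at least 1 targeted Col4a3 allele, no wild-type kidney is among them, and the labels used here give no control oligonucleotide, no dose and no sex. Mice without Col4a3 are a model of Alport syndrome, an inherited disease of the glomerular basement membrane in which scarring of the interstitium follows. The questions were how the interstitial collagens stand in the knockout kidney and how they stand after inhibition of miR-21.

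Fibrillar collagens form the load-bearing cables of connective tissue, and their deposition by fibroblasts and myofibroblasts is the defining feature of kidney fibrosis. Col1a1 and Col1a2 encode the chains of type I collagen, and Col3a1 the single chain type of type III collagen, which is laid down with type I in scar tissue. Col5a1 and Col5a2 encode chains of type V collagen, which starts fibrils and limits their width. Col6a1, Col6a2 and Col6a3 encode the chains that assemble into the beaded filaments of type VI collagen around cells. Col8a1 encodes a chain of the short, network-forming type VIII collagen of vessel walls and other matrices, and Col12a1 encodes type XII collagen, which binds to the surface of type I fibrils. In bulk tissue a lower level can come from fewer cells of a type or from less RNA per cell, and these cannot be told apart.

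The treatment blocks a microRNA, and microRNAs bind the 3′ UTR of a messenger through their seed, so the sequences below show which collagen messengers carry a match. Mature sequences are from RefSeq (GRCm38.p6), 5′ to 3′, with the seed, bases 2 to 8, in capitals. The gene of mmu-miR-21a-5p is on chromosome 11, that of mmu-miR-29a-3p on chromosome 6, and those of mmu-miR-29b-3p and mmu-miR-29c-3p on chromosome 1 (the copies shown). The miR-29 family is shown beside miR-21 because it is known to repress many collagen messengers.
mmu-miR-21a-5p: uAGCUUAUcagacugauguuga
mmu-miR-29a-3p: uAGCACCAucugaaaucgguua
mmu-miR-29b-3p: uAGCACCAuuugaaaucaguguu
mmu-miR-29c-3p: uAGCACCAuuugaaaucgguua

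The 3 miR-29 forms share 1 seed, and it differs from that of miR-21. The longest annotated 3′ UTR of each gene (GENCODE vM21, GRCm38) was searched for the 7-base match to each seed. The miR-21 match ATAAGCT was in 1 of the 10 collagen UTRs, that of Col12a1, and in 7.1% of the UTRs of all 20979 genes. The miR-29 match TGGTGCT was in 7 of 10 and in 13% of all UTRs. It occurred 4 times in Col5a1, was found once each in Col1a1, Col3a1, Col5a2, Col6a2, Col6a3 and Col8a1, and had no match in Col1a2, Col6a1 or Col12a1. The collagen UTRs were 732 to 2653 bases long, and longer UTRs hold more matches. A match is a run of letters, not a measured binding site. The windows below show the miR-21 match and, for the pair of genes with the largest differences between genotypes, the miR-29 match. Capitals mark the match, and the position of its first base is counted from the first base after the stop codon: 291 in Col12a1, 919 in Col1a1 and 235 in Col3a1.
Col12a1, miR-21 match: ggaggcgcctaATAAGCTactaaccaaca
Col1a1, miR-29 match: gaaggaatttcTGGTGCTatagaagctga
Col3a1, miR-29 match: aaatgtctcaaTGGTGCTataataaataa

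Col12a1, the 1 gene with a miR-21 match, lies on chromosome 9 from 79598991 to 79718831 on the minus strand (GRCm38, GENCODE vM21, as for all positions below). Its level was 25.1, 19.8, 26.9 and 16.4 CPM (counts relative to the TMM-scaled size of the library) in KO antimiR-21 and 34.0, 15.8, 24.2 and 22.5 CPM in KO PBS. The ranges overlapped, and the log2 difference was -0.13 (SE 0.21, edgeR adjusted p = 0.932).

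Libraries held 17.9 to 39.7 M counts after names with identical counts in all libraries were joined, and the collagen counts ran from 205.5 for Col8a1 in KO antimiR-21 replicate 4 to 12496.5 for Col3a1 in KO PBS replicate 1. The label of the tissue fits the marker levels: 6 proximal tubule markers summed to 11130 to 14890 CPM in every library. The targeted gene Col4a3 carried the same counts as its neighbour Col4a4, and the joint locus stood at 870 to 1271 CPM in HET PBS, 607 to 997 in KO PBS and 515 to 809 in KO antimiR-21, so it does not check the genotype. Ddx3y, a gene of the Y chromosome, separated libraries within every group. It stood at 89.7 to 109.5 CPM in HET PBS replicates 2 and 3, KO PBS replicates 3 and 4 and KO antimiR-21 replicate 4, and at 0.172 CPM or less in the other 6 libraries. Because this status varies with the groups, values within each status are given beside the group differences.

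Col3a1 and Col1a2 were the most abundant of the collagens in each group. Per kb of coding-transcript exons, which makes levels of different genes roughly comparable, HET PBS kidneys held 30.0 ± 5.90 CPM per kb of Col3a1 and 25.5 ± 6.73 of Col1a2 (SD, n = 3). Below them came Col6a1 at 10.98 ± 4.30, Col1a1 at 9.69 ± 0.668 and Col5a2 at 4.33 ± 1.06 CPM per kb. Col6a2, Col5a1 and Col6a3 stood between 3.79 and 3.89 CPM per kb, Col8a1 at 2.27 and Col12a1 at 1.20 CPM per kb. Ranges of neighbours in this order did not overlap at 3 steps: between Col1a2 and Col6a1, between Col1a1 and Col5a2, and between Col8a1 and Col12a1. The other neighbours overlapped. The annotation used for counting is not known. Over all annotated transcripts Col1a2 is 12.426 kb long instead of 5.348, and Col6a1 4.38 kb instead of 4.1. The step between Col1a2 and Col6a1 therefore depends on the length used. In KO PBS the order began with Col3a1 at 70.2, Col1a2 at 44.5, Col1a1 at 20.7 and Col6a1 at 14.5 CPM per kb. Col1a1 thus stood above Col6a1 in each of the 4 KO PBS libraries, with overlapping ranges. In KO antimiR-21 both stood at about the same level, 13.85 for Col1a1 and 13.89 for Col6a1, with Col6a1 higher in 2 of 4 libraries.

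Col3a1, on chromosome 1 from 45311538 to 45349706 on the plus strand, had the largest difference of the 10 genes between genotypes. Its level was 204, 157 and 141 CPM in HET PBS, 574, 270, 296 and 423 CPM in KO PBS, and 201, 220, 360 and 234 CPM in KO antimiR-21. Every KO PBS library lay above every HET PBS library, and KO PBS replicates 1 and 4 stood above all the rest. The means were 390.6 ± 139 CPM in KO PBS and 166.9 ± 32.9 CPM in HET PBS, a log2 difference of 1.23 (SE 0.28). It did not pass over all loci tested with edgeR's quasi-likelihood test (adjusted p = 0.371). DESeq2, run as an alternative, did call it (adjusted p = 0.00531), and over all alternatives the adjusted p ran from 0.00531 to 1.0.

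Against KO PBS, the Col3a1 mean of KO antimiR-21 was 253.9 ± 71.9 CPM (log2 difference -0.62, SE 0.25, edgeR adjusted p = 0.553). KO antimiR-21 replicate 3 lay within the KO PBS range and the other 3 libraries lay below all of it. Without KO PBS replicate 1 the difference was -0.38, so that library moved it by more than any other. KO antimiR-21 stood between the other groups, with a log2 difference of 0.61 from HET PBS (SE 0.28, edgeR adjusted p = 0.614) and overlapping ranges. The comparisons share libraries, so the values are given side by side and are not independent.

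Col1a1 is on chromosome 11 from 94936224 to 94953042 on the plus strand. Its HET PBS libraries stood close together at 61.7, 56.9 and 53.8 CPM, and the KO PBS libraries were spread from 75.1 over 92.7 and 139 to 183 CPM. KO antimiR-21 stood at 68.6, 84.0, 112 and 64.1 CPM. All 8 knockout libraries lay above the HET PBS range, and the knockout groups overlapped each other. The coefficient of variation was 6.9% in HET PBS, 39.7% in KO PBS and 26.3% in KO antimiR-21. Between KO PBS and HET PBS the log2 difference was 1.09 (SE 0.29, edgeR adjusted p = 0.457, and adjusted p = 0.0246 by DESeq2). KO antimiR-21 differed from KO PBS by -0.58 (SE 0.26, edgeR adjusted p = 0.608), and by -0.32 without KO PBS replicate 1. From HET PBS it differed by 0.52 (SE 0.29, edgeR adjusted p = 0.615).

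Col1a2, the other chain of type I collagen, lies on chromosome 6 from 4504814 to 4541544 on the plus strand. It stood at 174, 131 and 103 CPM in HET PBS, at 331, 165, 190 and 266 CPM in KO PBS, and at 185, 176, 248 and 156 CPM in KO antimiR-21. KO PBS replicate 2, at 165 CPM, lay below HET PBS replicate 1, so these groups overlapped. The log2 differences were 0.81 for KO PBS against HET PBS (SE 0.26, edgeR adjusted p = 0.539) and -0.31 for KO antimiR-21 against KO PBS (SE 0.24, edgeR adjusted p = 0.789).

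**Figure D1:**
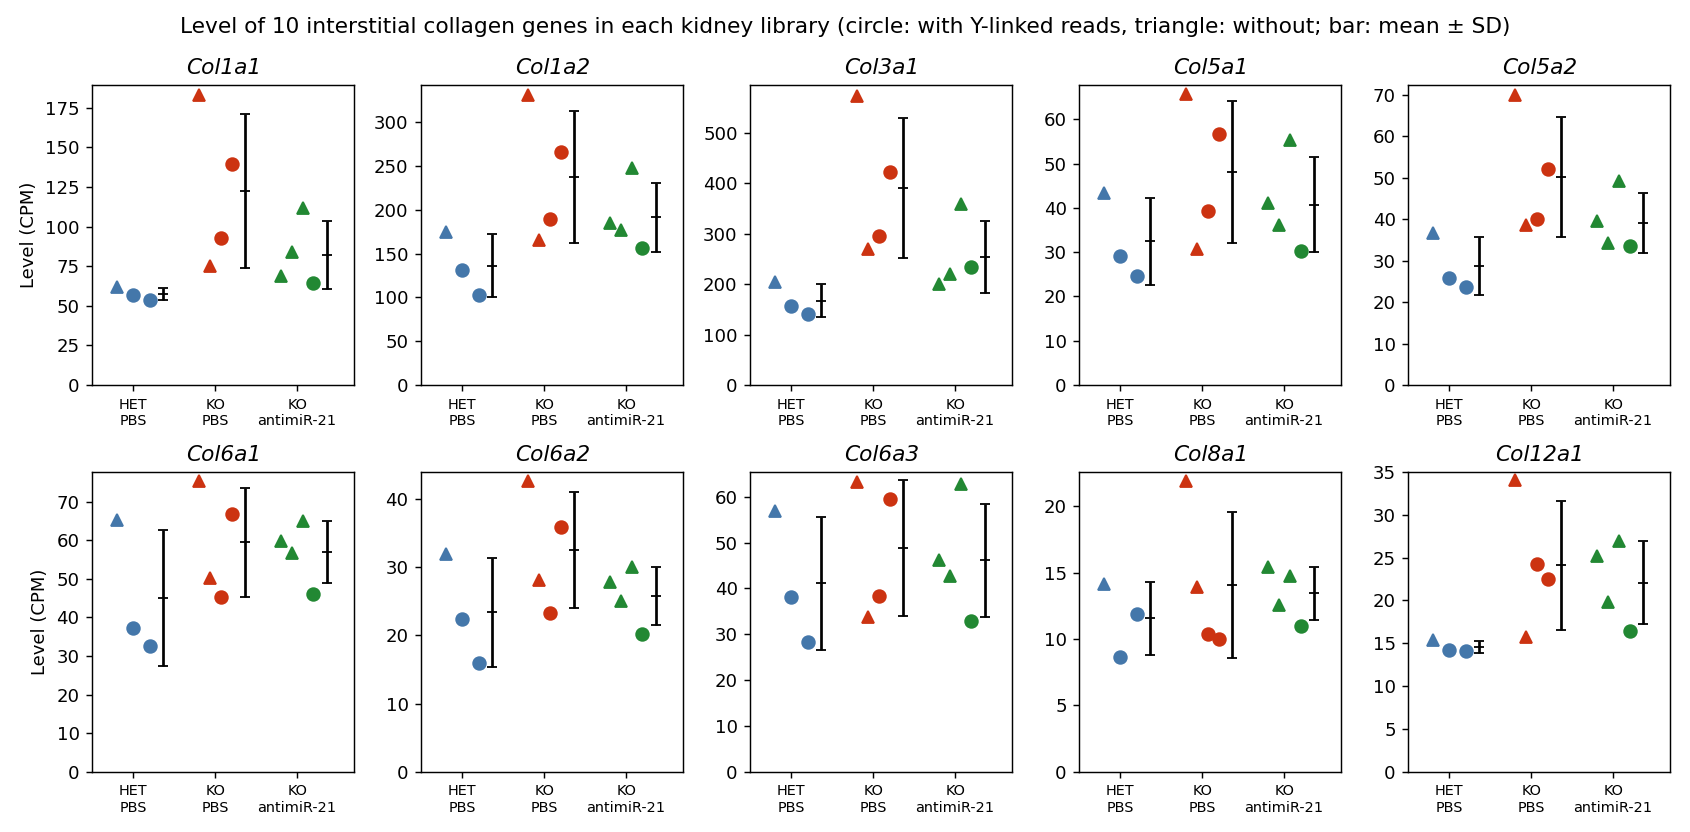
Level of each collagen gene in CPM (vertical axes, each starting at 0) in each library of HET PBS, KO PBS and KO antimiR-21. Circles are libraries with Y-linked reads, triangles libraries without, and the bars give mean ± SD. KO PBS replicate 1 is the highest of the 11 libraries for all 10 genes, and Col1a1, Col3a1, Col5a2 and Col12a1 have no overlap between KO PBS and HET PBS.

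Of the type V chains, Col5a2 had the same log2 difference between genotypes as Col1a2 and Col5a1 a smaller one. Col5a2, on the minus strand of chromosome 1 from 45374321 to 45503282, lies 24.6 kb from Col3a1 and is read in the opposite direction. Its level was 36.7, 25.9 and 23.6 CPM in HET PBS and 69.9, 38.6, 40.0 and 52.1 CPM in KO PBS, without overlap. The log2 difference was 0.81 (SE 0.23, edgeR adjusted p = 0.493). KO antimiR-21 stood at 39.6, 34.2, 49.2 and 33.6 CPM, which overlapped both other groups (log2 difference -0.36 from KO PBS, SE 0.21, edgeR adjusted p = 0.724). Col5a1, on chromosome 2 from 27886425 to 28039514 on the plus strand, stood at 43.5, 29.2 and 24.6 CPM in HET PBS, at 65.6, 30.7, 39.2 and 56.8 CPM in KO PBS and at 41.2, 36.1, 55.3 and 30.3 CPM in KO antimiR-21. All 3 groups overlapped for Col5a1, with a log2 difference of 0.57 between KO PBS and HET PBS (SE 0.29, edgeR adjusted p = 0.766) and of -0.24 between KO antimiR-21 and KO PBS (SE 0.27, edgeR adjusted p = 0.878).

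Type VI chains stood nearer to their HET PBS level. Col6a1 (chromosome 10, 76708792 to 76726168) and Col6a2 (chromosome 10, 76595762 to 76623630) lie 85.2 kb apart on the same minus strand, and Col6a3 lies on chromosome 1 from 90765923 to 90843971 on the minus strand. Col6a1 stood at 65.2, 37.2 and 32.7 CPM in HET PBS, at 75.4, 50.3, 45.2 and 66.8 CPM in KO PBS and at 59.9, 56.8, 64.99 and 46.0 CPM in KO antimiR-21. The high HET PBS value is replicate 1, which lies within the KO PBS range and just above the KO antimiR-21 range. Col6a2 ran from 15.9 to 31.8 CPM in HET PBS, from 23.3 to 42.6 in KO PBS and from 20.2 to 30.0 in KO antimiR-21. Col6a3 ran from 28.4 to 56.8 CPM, from 33.8 to 63.3 and from 32.9 to 62.7 in the same order. Between KO PBS and HET PBS the log2 differences were 0.40 for Col6a1 (SE 0.25), 0.48 for Col6a2 (SE 0.25) and 0.25 for Col6a3 (SE 0.29), with edgeR adjusted p-values of 0.787, 0.766 and 0.883. Without HET PBS replicate 1 they were 0.77, 0.76 and 0.55, so that library held the type VI differences down more than any other. Between KO antimiR-21 and KO PBS they were -0.06 (SE 0.23), -0.33 (SE 0.23) and -0.08 (SE 0.27), with edgeR adjusted p-values of 0.969, 0.773 and 0.965.

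The fibril-associated Col12a1 stood at 15.3, 14.2 and 14.0 CPM in HET PBS, below each of the 4 KO PBS libraries given above. The closest pair was 15.3 CPM in HET PBS replicate 1 and 15.8 CPM in KO PBS replicate 2. The log2 difference was 0.73 (SE 0.23, edgeR adjusted p = 0.536). KO antimiR-21 also lay above the HET PBS range in 4 of 4 libraries, with a log2 difference of 0.60 (SE 0.23, edgeR adjusted p = 0.590).

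Col8a1 followed another pattern. The gene lies on chromosome 16 from 57624258 to 57754737 on the minus strand, and it stood at 14.2, 8.67 and 11.9 CPM in HET PBS, at 21.9, 13.9, 10.4 and 10.01 CPM in KO PBS and at 15.4, 12.6, 14.7 and 11.02 CPM in KO antimiR-21. KO PBS replicates 2, 3 and 4 lay within the HET PBS range and replicate 1 above it, although replicate 4 was the second highest KO PBS library for most other collagens. The log2 difference between KO PBS and HET PBS was 0.28 (SE 0.27, edgeR adjusted p = 0.853), and it was -0.01 without KO PBS replicate 1. KO antimiR-21 differed from KO PBS by -0.07 (SE 0.25, edgeR adjusted p = 0.973). Split by Y-linked status across the groups, the 5 libraries with Y-linked reads ran from 8.67 to 11.86 CPM and the 6 without from 12.6 to 21.9 CPM, with no overlap. With the status as a term beside the groups, Col8a1 was lower where Y-linked reads were present, in 5 of 5 such libraries, with a log2 difference of -0.58 (SE 0.15, edgeR adjusted p = 0.0163). It was the 1 collagen gene of the 10 called by that term, which called 6.85% of all loci lower and 11.1% higher. Of all loci, 4.14% were lower and 8.14% higher without overlap between the statuses. Col6a1 (-0.45, SE 0.16, edgeR adjusted p = 0.0731) and Col6a2 (-0.45, SE 0.16, edgeR adjusted p = 0.0719) did not pass. This split was looked at after the values were seen.

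As a group, the 10 collagens all had positive log2 differences between KO PBS and HET PBS, where 46.5% of all loci did. Their median was 0.65, with a range from 0.25 to 1.23, against -0.015 over all loci tested. None of the 10 passed at an adjusted p under 0.05 by edgeR, and 0.0% of all loci did in either direction. At an unadjusted p under 0.05, 5 of 10 were higher and 0 lower, against 4.21% and 2.73% of all loci. Ranges did not overlap for 4 of 10, all higher, against 3.55% of all loci that were higher and 3.21% that were lower without overlap. By DESeq2, 2 of the 10 were called higher, Col1a1 and Col3a1, of 72 loci called higher and 12 lower. Most of the 10 genes were high or low in the same libraries, and they were chosen with earlier results of these data known. The counts here and in the other comparisons are therefore not independent, and they are no test of the set against all loci.

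Between KO antimiR-21 and KO PBS all 10 log2 differences were negative, where 49.1% of all loci were. Their median was -0.28 against 0.004 over all loci, and they ran from -0.62 for Col3a1 to -0.06 for Col6a1. No collagen passed at an adjusted p under 0.05, by edgeR or by DESeq2, and edgeR called 0.0% of all loci in each direction. At an unadjusted p under 0.05, 1 of 10 was lower, Col3a1, and 0 higher, against 3.46% and 4.76% of all loci. Ranges overlapped for all 10 genes, where 1.95% of all loci were lower and 2.34% higher without overlap. Without KO PBS replicate 1 the differences of Col6a1, Col6a3, Col8a1 and Col12a1 turned positive, to 0.07, 0.07, 0.23 and 0.08, so these signs are not stable to that library. Col6a1, Col6a3 and Col8a1 also turned positive without KO antimiR-21 replicate 4 (0.01, 0.03 and 0.004), and Col6a3 without KO PBS replicate 4 (0.03). KO PBS replicate 1 likewise set much of the size of other members: without it Col1a2 was -0.11, Col5a1 -0.05, Col5a2 -0.15 and Col6a2 -0.17.

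Between KO antimiR-21 and HET PBS all 10 log2 differences were positive (49.5% of all loci), with a median of 0.39 against -0.002. Of all loci, 0.00695% passed as higher at an adjusted p under 0.05, which is 1 locus and no collagen. At an unadjusted p under 0.05 Col12a1 alone of the 10 was higher and 0 were lower, against 5.04% and 3.01% of all loci. Col1a1 and Col12a1, 2 of the 10, were higher without overlap between the groups, against 3.88% of all loci that were higher and 2.1% that were lower.

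**Figure D2:**
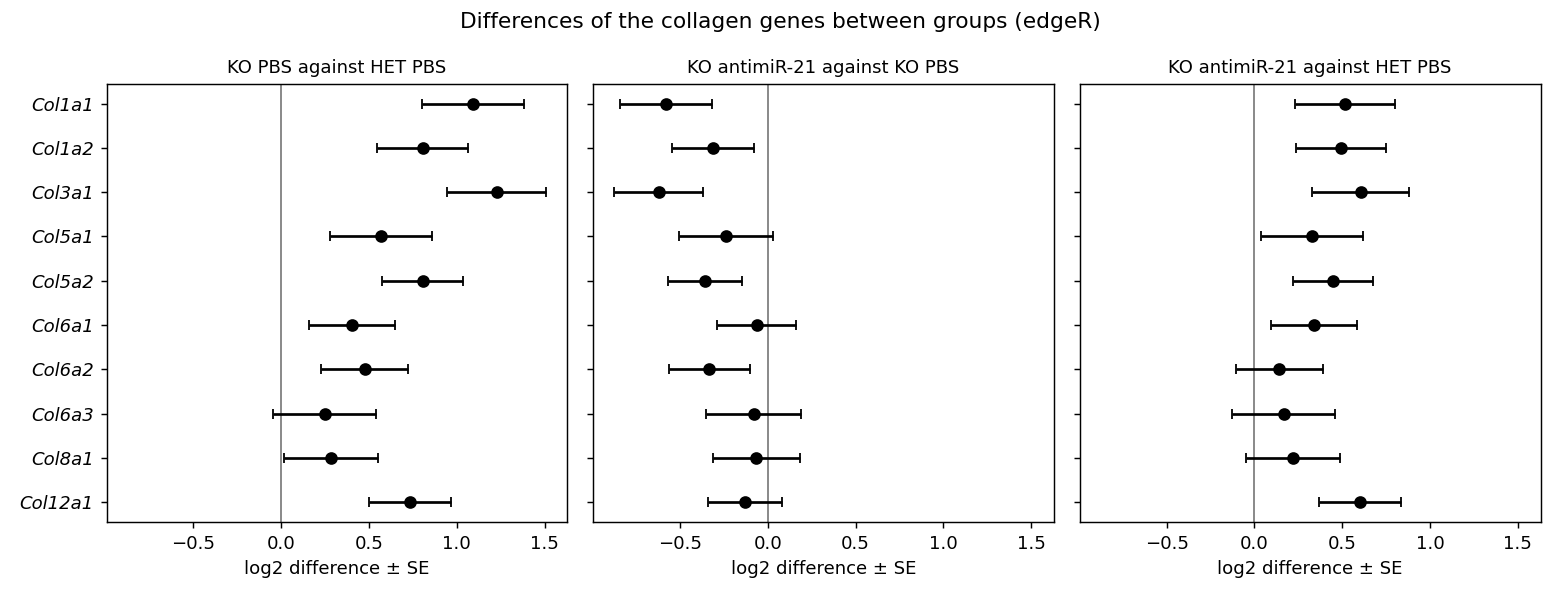
Log2 difference of each collagen gene (horizontal axis, points with bars of 1 SE, edgeR) in the 3 comparisons. All 10 points lie above 0 for KO PBS against HET PBS and for KO antimiR-21 against HET PBS, and below 0 for KO antimiR-21 against KO PBS, where they run from -0.62 to -0.06.

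Within Y-linked status the differences of the type I, III and V chains between KO PBS and HET PBS kept their direction. Their size was much the same for Col1a1 and smaller without Y-linked reads for the others, which was not tested. Among the libraries with Y-linked reads (2 HET PBS, 2 KO PBS), the log2 difference of KO PBS from HET PBS was 1.31 for Col3a1, 1.11 for Col1a1 and 0.72 for Col6a1. Among those without (1 HET PBS, 2 KO PBS), it was 1.06 for Col3a1, 1.07 for Col1a1 and -0.05 for Col6a1. Col5a1 went from 0.87 with Y-linked reads to 0.16 without, Col1a2 from 0.997 to 0.515 and Col5a2 from 0.94 to 0.57. Col6a2 had 0.66 and 0.16, Col8a1 0.03 and 0.35, and Col12a1 0.76 and 0.71. Col6a3 had 0.60 with Y-linked reads and -0.22 without, so the sign of Col6a1 and Col6a3 differed by status, a difference that was not tested. The single HET PBS library without Y-linked reads is replicate 1, so status and that library cannot be told apart there. For KO antimiR-21 against KO PBS, Col3a1 had -0.64 with Y-linked reads (1 and 2 libraries) and -0.70 without (3 and 2), and Col1a1 had -0.88 and -0.56. In the same order Col5a1 had -0.69 and -0.13, Col6a3 -0.60 and 0.05, and Col8a1 0.09 and -0.34. No collagen passed the edgeR test in either subset.

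The libraries differed from each other for all the collagens at once. KO PBS replicate 1 was the highest of the 11 libraries for 10 of 10 genes. HET PBS replicate 3 was the lowest for 9 of 10, with HET PBS replicate 2 the lowest for Col8a1. Within groups, HET PBS replicate 1 was the highest of its group for 10 of 10, KO antimiR-21 replicate 3 for 9 of 10, and KO antimiR-21 replicate 4 was the lowest of its group for 9 of 10. The summed level of the 10 genes was 703, 520 and 448 CPM in HET PBS, 1460, 721, 799 and 1131 CPM in KO PBS and 710, 708, 1024 and 645 CPM in KO antimiR-21. KO PBS replicate 2, at 721 CPM, was close to HET PBS replicate 1, at 703 CPM, so the sums of these groups nearly met. The share of type I and III chains in that sum was 62.5% to 66.3% in HET PBS, 70.7% to 74.5% in KO PBS and 64.1% to 70.5% in KO antimiR-21.

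**Figure D3:**
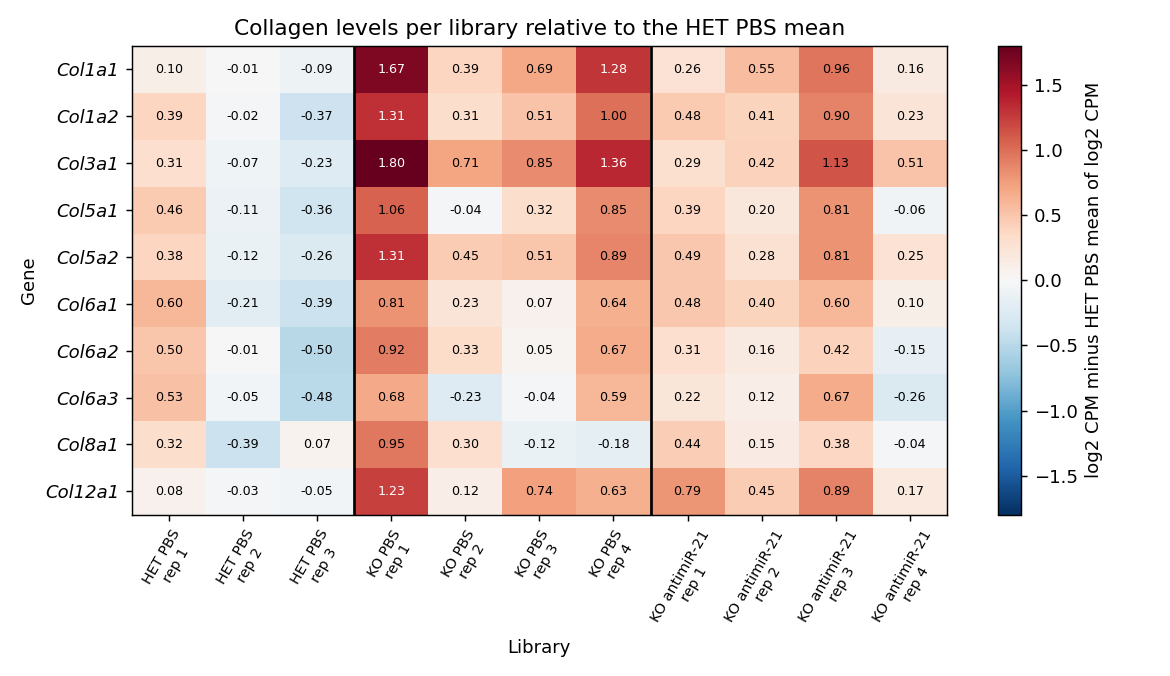
Level of each collagen gene (rows) in each library (columns), as log2 CPM minus the mean log2 CPM of HET PBS. The KO PBS replicate 1 column is the darkest, up to 1.80 for Col3a1, and HET PBS replicate 1 is the darkest column of its group, up to 0.60 for Col6a1.

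Ratios of chains that assemble together were compared within each library, where the scaling of the library cancels. The level of Col6a1 over Col6a2 stood at a log2 ratio of 1.109, 1.179, 1.113 and 1.186 in KO antimiR-21 and of 0.823, 0.837, 0.958 and 0.901 in KO PBS. The ranges did not overlap, and the difference was 0.27 (1.147 ± 0.041 against 0.88 ± 0.062, SD, n = 4 each). Its two-sided exact permutation p was 0.0286, the smallest that 4 against 4 allows, and 0.286 adjusted over the 15 ratio tests. In HET PBS the ratio was 1.035, 0.736 and 1.04, below all of KO antimiR-21 as well (difference 0.21, exact permutation p = 0.0571, adjusted p = 0.286). That p is the smallest that 3 against 4 allows in this two-sided test. The KO PBS and HET PBS ratios overlapped (difference -0.06, exact permutation p = 0.629).

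The chains of type I collagen showed no such separation. The log2 ratio of Col1a1 over Col1a2 was -1.213 ± 0.283 in HET PBS, -0.989 ± 0.123 in KO PBS and -1.234 ± 0.159 in KO antimiR-21. Col1a1 was therefore below Col1a2 in CPM in every library, by a ratio of 0.354 to 0.553. KO antimiR-21 differed from KO PBS by -0.25 (exact permutation p = 0.0571, adjusted p = 0.286) and KO PBS from HET PBS by 0.23 (exact permutation p = 0.229, adjusted p = 0.381). The other 3 ratios, Col3a1 over Col1a1, Col5a1 over Col5a2 and Col6a3 over Col6a1, overlapped in all comparisons, with differences from -0.24 to 0.17. None of the 15 tests passed after adjustment. The smallest exact permutation p is 0.0286 with 4 against 4 and 0.0571 with 3 against 4. No test could therefore have passed the adjustment over all 15, and this outcome was fixed by the group sizes.

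**Figure D4:**
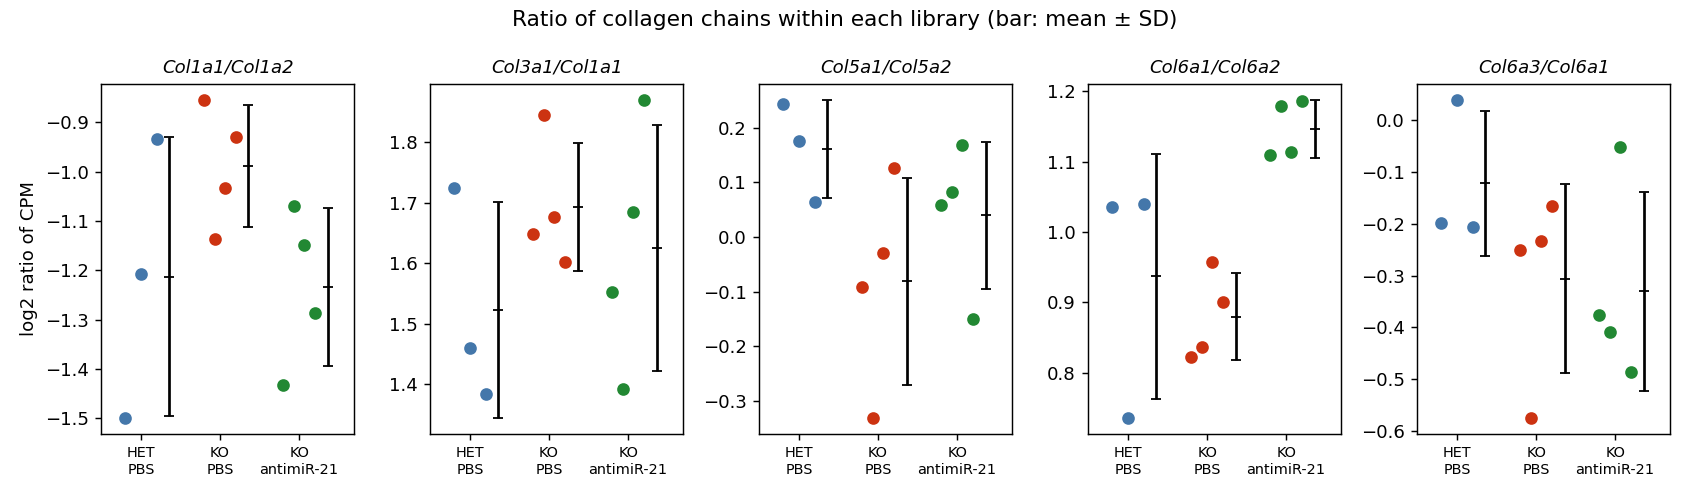
Log2 ratio of the CPM of a pair of collagen chains within each library (vertical axes, one per ratio, not starting at 0), with bars of mean ± SD. Only Col6a1 over Col6a2 separates KO antimiR-21 (1.109 to 1.186) from both KO PBS (0.823 to 0.958) and HET PBS (0.736 to 1.04).

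The promoters of the collagen genes were searched for short motifs, since several members stood high in the same libraries. RefSeq promoters (GRCm38.p6, 250 bases before to 50 after a start) were at hand for 7 of the 10 genes, 8 promoters in all: Col1a2, Col3a1, Col5a1, Col6a1, Col6a2 (2 starts), Col6a3 and Col8a1. Searched on both strands, CAGAC, a core that SMAD proteins of TGF-beta signalling bind, was in 6 of 8 and in 49.6% of all 32851 promoters. GGGCGG, the GC box, was in 5 of 8 (35.7% of all). CCAAT was in 1 of 8, Col1a2 (37.4% of all), and TATAAA in 1 of 8, Col3a1 (13.6% of all). The 250 bases before the start of the 2 genes are shown to compare them: Col1a2 is rich in G and C, and Col3a1 in A and T. Both are on the plus strand, at chr6:4505368-4505617 and chr1:45311288-45311537, and capitals mark CCAAT and TATAAA. The RefSeq start used for Col1a2 lies inside the GENCODE interval given above, which begins at 4504814.
Col1a2: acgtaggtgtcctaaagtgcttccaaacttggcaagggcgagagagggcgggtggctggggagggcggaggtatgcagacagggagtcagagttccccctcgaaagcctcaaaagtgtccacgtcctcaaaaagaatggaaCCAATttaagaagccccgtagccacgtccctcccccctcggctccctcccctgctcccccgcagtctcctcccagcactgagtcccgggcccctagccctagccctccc
Col3a1: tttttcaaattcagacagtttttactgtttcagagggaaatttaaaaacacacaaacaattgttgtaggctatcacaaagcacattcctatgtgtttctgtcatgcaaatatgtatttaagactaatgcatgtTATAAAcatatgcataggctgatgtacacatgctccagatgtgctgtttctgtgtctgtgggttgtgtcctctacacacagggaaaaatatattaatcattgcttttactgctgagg

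The loci whose level ran most like that of Col3a1 over the 11 libraries were named by Pearson's r of log2 CPM. They were Gpr153 (r = 0.96), Fblim1 (0.947), Adamts2 (0.945), Slc34a2 (0.933) and Fstl1 (0.932). For Col1a1 they were Flna, which encodes the actin-binding protein filamin A (r = 0.938), Tgfb1i1 (0.935), Ccdc120 (0.92), Tnfaip2 (0.906) and Csf1, a growth factor of macrophages (0.906). Without the 2 libraries farthest from the median, r ran from 0.903 to 0.966 for the Col3a1 list and from 0.777 to 0.907 for the Col1a1 list. All points share the 3 groups and KO PBS replicate 1, and the loci were the highest among all tested, so these r describe likeness in these libraries.

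A collagen chain passes through hydroxylation, folding, secretion, removal of its ends and cross-linking before it is a fibril. Counts of these lists and of the cell markers are read against the shares over all loci: 46.5% positive and 4.21% higher at an unadjusted p under 0.05 between KO PBS and HET PBS, and 49.1% negative and 3.46% lower between KO antimiR-21 and KO PBS. Of 15 tested loci of modification and folding, 11 had positive and 4 negative log2 differences between KO PBS and HET PBS (median 0.07), with 0 past the adjusted threshold and 1 at an unadjusted p under 0.05. Between KO antimiR-21 and KO PBS, 6 were positive and 9 negative (median -0.04), with 3 lower at an unadjusted p under 0.05. Serpinh1, which encodes the collagen chaperone HSP47, stood at 101, 99.4, 123 and 120 CPM in KO antimiR-21, at 142, 139, 159 and 157 CPM in KO PBS and at 116, 121 and 144 CPM in HET PBS. KO antimiR-21 lay below all of KO PBS and overlapped HET PBS. Its log2 difference from KO PBS was -0.43 (SE 0.10, edgeR adjusted p = 0.326).

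The joint locus of Plod2, whose enzyme hydroxylates the lysines at which collagens are cross-linked, and B430319G15Rik had a like pattern. It stood at 103, 102, 121 and 108 CPM in KO antimiR-21, at 160, 140, 154 and 154 CPM in KO PBS and at 106, 97.8 and 148 CPM in HET PBS. Again KO antimiR-21 lay below all of KO PBS (log2 difference -0.49, SE 0.12, edgeR adjusted p = 0.326). The reads of this locus cannot be assigned to either gene. P4ha1, a prolyl hydroxylase subunit, was the other of the 3 (log2 difference -0.24). It falls outside the rule for named genes and was chosen after its values were seen.

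Of 10 genes that cleave propeptides or cross-link fibrils, 7 had positive log2 differences between KO PBS and HET PBS (median 0.59) and 4 were higher at an unadjusted p under 0.05, with none past the adjusted threshold. Adamts2, which removes the amino-terminal propeptides of fibrillar collagens, stood at 9.27, 6.84 and 4.89 CPM in HET PBS and at 18.1, 10.3, 13.2 and 14.9 CPM in KO PBS, without overlap (log2 difference 1.02, SE 0.27, edgeR adjusted p = 0.457). Loxl1, a lysyl oxidase of cross-linking, stood at 14.6, 8.21 and 7.02 CPM in HET PBS and at 27.3, 16.6, 16.7 and 22.5 CPM in KO PBS, also without overlap (1.07, SE 0.30, edgeR adjusted p = 0.457). Both had their highest value in KO PBS replicate 1, as the collagens did. Between KO antimiR-21 and KO PBS, 6 of the 10 were positive and 4 negative, and 0 had an unadjusted p under 0.05. Of these Loxl4, another lysyl oxidase, had the smallest p (11.3 ± 7.91 against 21.1 ± 7.27 CPM, log2 difference -0.90, SE 0.44, edgeR adjusted p = 0.648).

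Of 6 genes of collagen cleavage and uptake, 4 had positive log2 differences between KO PBS and HET PBS (median 0.52). The gelatinase Mmp2 (25.1 ± 7.13 against 15.6 ± 4.87 CPM, log2 difference 0.69, SE 0.24) and its membrane-bound activator Mmp14 (26.3 ± 9.45 against 15.7 ± 4.99 CPM, 0.75, SE 0.29) had overlapping ranges and edgeR adjusted p-values of 0.590 and 0.643. Mmp13, a collagenase that cuts fibrils, stood at 1.22 ± 0.830 CPM in KO antimiR-21 and 2.95 ± 0.871 CPM in KO PBS, with overlapping ranges (-1.27, SE 0.47, edgeR adjusted p = 0.492).

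Other collagen genes were split between directions. Of 22 tested loci, 12 were positive and 10 negative between KO PBS and HET PBS (median 0.09), and none passed the adjusted threshold. Col27a1, a fibrillar collagen best known from cartilage, stood at 305, 371 and 334 CPM in HET PBS and at 254, 198, 275 and 282 CPM in KO PBS. Here KO PBS lay below HET PBS without overlap (log2 difference -0.42, SE 0.14, edgeR adjusted p = 0.560). Col24a1, another fibrillar collagen, was also lower without overlap, at 1.94 ± 0.0986 against 2.93 ± 0.677 CPM (-0.59, SE 0.23, edgeR adjusted p = 0.661). Col23a1, a transmembrane collagen, stood at 13.1, 11.1, 7.76 and 8.19 CPM in KO antimiR-21 and at 6.24, 5.86, 5.42 and 5.71 CPM in KO PBS, without overlap (0.79, SE 0.23, edgeR adjusted p = 0.380). The joint Col4a1/Col4a2 locus of the ubiquitous basement membrane chains stood at 1146 ± 222 CPM in KO antimiR-21 and 1506 ± 208 CPM in KO PBS, with overlapping ranges (-0.39, SE 0.14, edgeR adjusted p = 0.491).

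**Figure D5:**
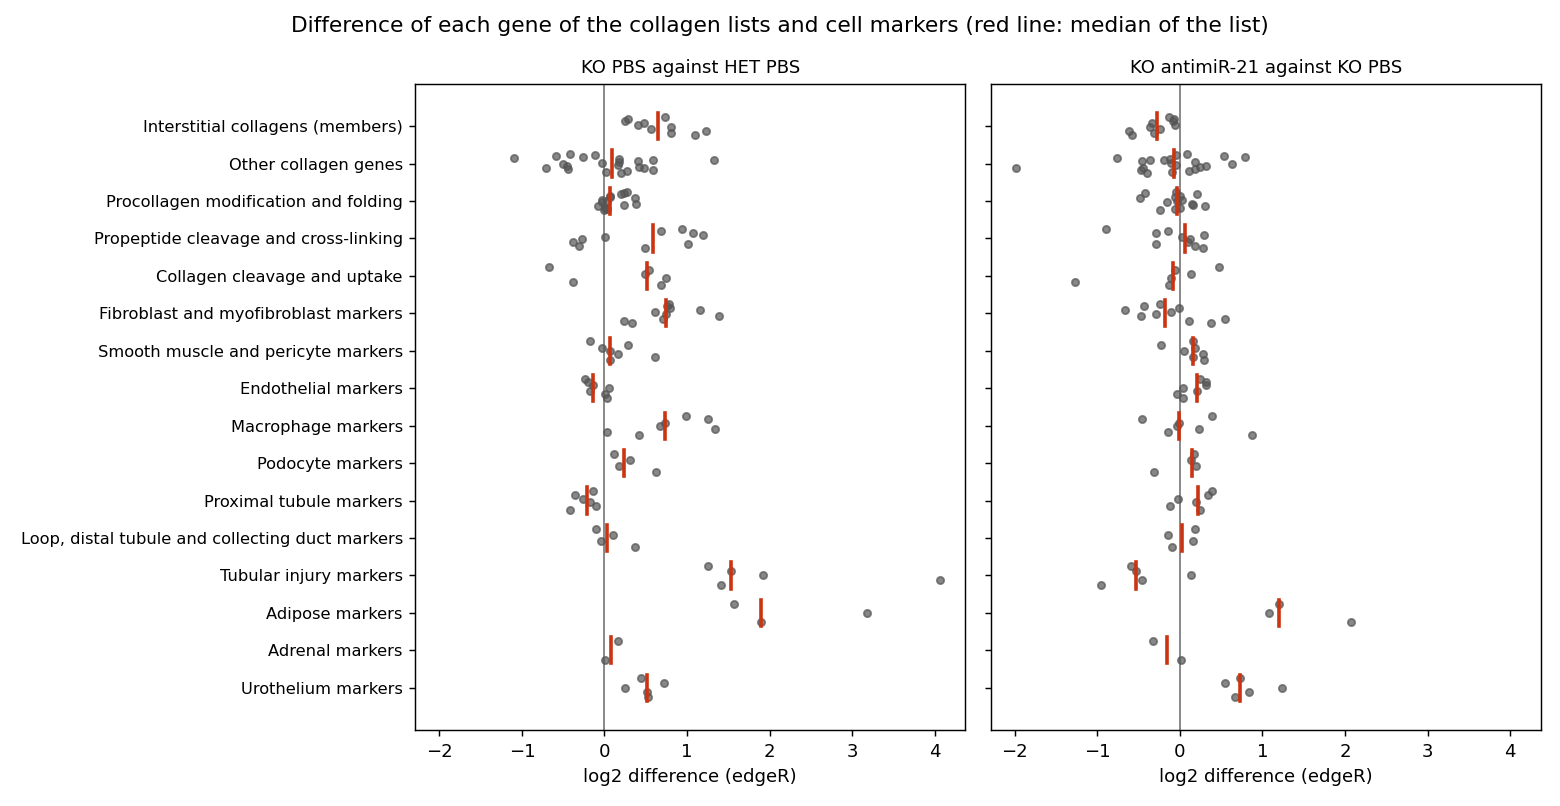
Log2 difference of each tested locus (horizontal axis, edgeR, points) in the interstitial collagens, the other collagen lists and the cell markers (rows), with a red line at the median of each list. For KO PBS against HET PBS the medians are 0.65 for the interstitial collagens, 0.59 for cleavage and cross-linking, 0.75 for fibroblast and 0.74 for macrophage markers, beside 0.07 for modification and folding.

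Markers of several cell types were read in the same libraries. All 10 tested fibroblast and myofibroblast loci had positive log2 differences between KO PBS and HET PBS (median 0.75), 7 of them higher at an unadjusted p under 0.05 (46.5% and 4.21% of all loci), and between KO antimiR-21 and KO PBS 3 were positive and 7 negative (median -0.18). Their summed level ran from 248 to 457 CPM in HET PBS, from 370 to 727 in KO PBS and from 382 to 587 in KO antimiR-21. Lum, the collagen-binding proteoglycan lumican, stood at 2.75, 1.81 and 2.49 CPM in HET PBS and at 8.72, 6.21, 4.14 and 5.51 CPM in KO PBS, without overlap (log2 difference 1.39, SE 0.28, edgeR adjusted p = 0.368). Dcn, the proteoglycan decorin of the same cells, had a positive difference between KO antimiR-21 and KO PBS, at 100.5 ± 24.0 against 69.0 ± 18.9 CPM (0.54, SE 0.25, edgeR adjusted p = 0.616, ranges overlapping).

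All 7 tested macrophage loci were positive between KO PBS and HET PBS (median 0.74), with sums of 248 to 287 CPM in HET PBS, 300 to 379 in KO PBS and 300 to 356 in KO antimiR-21. Much of each sum is the joint Csf1r/Hmgxb3 locus, with means of 208.3, 213.6 and 193.2 CPM in these groups. Its reads cannot be assigned to either gene. All 5 tubular injury markers were positive (median 1.53), with sums of 36.7 to 68.8 CPM, 116 to 299 CPM and 92.4 to 144 CPM in the same order. All 6 proximal tubule loci were negative (median -0.22), and their sums were 13920 to 14890 CPM in HET PBS, 11130 to 12360 CPM in KO PBS and 11890 to 14740 CPM in KO antimiR-21. Between KO antimiR-21 and KO PBS, 4 of 6 proximal tubule loci (median 0.22) and 6 of 7 endothelial loci (median 0.21) were positive, 4 of 5 tubular injury markers were negative (median -0.53), and of the macrophage loci 3 were positive and 4 negative (median -0.02). Between KO PBS and HET PBS, smooth muscle and pericyte loci (5 positive, 2 negative, median 0.07), endothelial (3 and 4, median -0.14), podocyte (4 and 0, median 0.24) and loop, distal tubule and collecting duct loci (2 and 2, median 0.03) lay nearer to 0. Markers of tissue next to the kidney also varied, between libraries of a group as well as between groups. Urothelial loci summed to 7.33 to 15.9 CPM in HET PBS, 14.5 to 26.9 in KO PBS and 12.7 to 45.7 in KO antimiR-21, and 5 of 5 were positive in each comparison (medians 0.52 for KO PBS and 1.28 for KO antimiR-21 against HET PBS, and 0.73 for KO antimiR-21 against KO PBS). Adipose loci summed to at most 0.576, 5.01 and 13.3 CPM in the same groups. All 3 were positive in each comparison, with overlapping ranges and a median of 3.97 for KO antimiR-21 against HET PBS. That median rests on KO antimiR-21 replicates 1 and 2, where the 3 loci stood at 0.7735 to 4.81 CPM. In replicates 3 and 4 each stood at 0.05352 CPM or less, within or below its HET PBS range. Adrenal markers summed to 66.2 to 76.1 CPM over all libraries, most of it from the joint Ash2l/Star locus (means of 61.9 to 62.8 CPM) and from Akr1b7 (8.23 to 10.4 CPM), while the steroid hydroxylase genes Cyp11b1 and Cyp11b2 of the adrenal cortex were at 0. The part of any of these cell types in the collagen differences was not tested.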

How the data were processed

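Messenger RNA of 11 whole kidneys was sequenced from TruSeq RNA v2 libraries, per the labels' protocols, a kit that does not mark strand. Build mm10 and the tools HTSeq 0.5.4p5, STAR, SAMtools, FastQC and limma appear in the submitters' processing notes. Not given in the sources used here are the annotation used for counting and its settings. The authors deposited estimated counts per gene, not normalized, in steps of 0.5 (47.4% of values above 0 were not whole), and a log2 matrix of the same libraries, used here as an alternative only.

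Names with identical counts in all 11 libraries and a total of at least 50 were joined into a joint locus (1513 sets), chosen after the files were examined; none of the 10 collagens was in one. Rounded counts were fitted with edgeR 4.0.16 in R 4.3.3 (TMM, filterByExpr, robust quasi-likelihood, 3 groups, two-sided, Benjamini-Hochberg over 14380 loci, 1502 of them joint, threshold 0.05; biological coefficient of variation 0.215) and checked on simulated data. CPM use TMM library sizes, and CPM per kb the exons of coding transcripts. Chain ratios were tested by exact permutation. Libraries with Ddx3y above 5 CPM count as having Y-linked reads. Nothing ties libraries to separate mice beyond the group labels, so p-values refer to differences between these samples. The edgeR p-value sets a group difference against the spread between libraries within groups. That spread includes differences by Y-linked status, which the main fit leaves out. Alternatives were DESeq2 1.42.0, limma-voom 3.58.1, other scaling, no filter, rows as deposited, 2 groups only, Y-linked status, a replicate block and each library left out.

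The members and lists were chosen with earlier results of these data known. The rule for named genes took the 10 collagens, per list the 2 genes with the smallest p in either of the first 2 comparisons, Col4a3 and Ddx3y. It also took the 5 loci outside the 10 collagens most like Col1a1 and Col3a1 (mean of at least 5 CPM). Of most cell marker lists only counts and sums are printed.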

Additional observations from a re-analysis of the deposited data

Results flagged for a closer look

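In the groups of 4 libraries, 66 sets of values of the collagens and named matrix genes were checked for a library far from the other 3, and chance alone gives about 1 such library in 20 groups. There were 2. Col27a1 stood at 320.5 CPM in KO antimiR-21 replicate 2, where the next library had 254.6 and the lowest 244.7 CPM. Fap, a serine protease of activated fibroblasts, stood at 0.6426 CPM in KO PBS replicate 1, where the next library had 0.4008 and the lowest 0.3882 CPM. None of the 10 interstitial collagens had such a library, although KO PBS replicate 1 was the highest of the 11 libraries for all 10. With 4 values, only a gap that fills most of the range is flagged, and each gene is checked alone. The check therefore cannot show whether KO PBS replicate 1 stands apart over the 10 genes together. Without that library the differences of Col6a1, Col6a3, Col8a1 and Col12a1 between KO antimiR-21 and KO PBS turned positive, as given above.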

How the results depend on the processing

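Of 660 recomputed collagen differences, 23 changed sign, all of them of type VI chains, Col8a1 or Col12a1, and Col1a1 and Col3a1 in KO PBS against HET PBS passed the threshold by DESeq2 where edgeR did not call them. The causes were not tested. DESeq2 called 72 loci higher and 12 lower for KO PBS against HET PBS, 2 of the 72 being collagens, 84 and 54 for KO antimiR-21 against KO PBS, and 65 and 9 for KO antimiR-21 against HET PBS, where edgeR called 0 and 0, 0 and 0, and 1 and 0. With Y-linked status as a covariate, 3 loci were higher in KO PBS and 2 in KO antimiR-21 than in HET PBS, and Col6a2 and Col8a1 turned to -0.024 and -0.013 in the latter comparison. The authors' log2 matrix gave 1 and 2 higher loci in the comparisons with HET PBS. For KO antimiR-21 against HET PBS, limma-voom and the fits within each Y-linked status gave 0 higher loci, and limma-voom gave 0.015 for Col8a1 against KO PBS.

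Among libraries without Y-linked reads, log2 differences were -0.048 for Col6a1 and -0.22 for Col6a3 in KO PBS against HET PBS, 0.05 for Col6a3 in KO antimiR-21 against KO PBS, and -0.109, -0.206 and -0.17 for Col6a1, Col6a2 and Col6a3 in KO antimiR-21 against HET PBS. Among those with Y-linked reads, Col8a1 was 0.094 against KO PBS and Col6a3 -0.004 against HET PBS. Of 140 recomputed chain ratios 12 changed sign. Within Y-linked status these were, for KO antimiR-21 against HET PBS, Col1a1 over Col1a2 (0.282) and Col3a1 over Col1a1 (-0.181) without such reads. For KO antimiR-21 against KO PBS they were Col3a1 over Col1a1 (0.23) and Col5a1 over Col5a2 (-0.198) with them and Col6a3 over Col6a1 (0.134) without, and for KO PBS against HET PBS Col6a1 over Col6a2 (0.042) with them.

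With each library left out in turn, higher loci ran from 0 to 2, from 0 to 16 and from 0 to 4 in the 3 comparisons. The 16 came without KO antimiR-21 replicate 3. Col8a1 ran from -0.013 to 0.456 in KO PBS against HET PBS. In KO antimiR-21 against KO PBS, Col6a1 ran from -0.173 to 0.073, Col6a3 from -0.266 to 0.069, Col8a1 from -0.198 to 0.233 and Col12a1 from -0.298 to 0.083. In KO antimiR-21 against HET PBS, Col6a2 ran from -0.074 to 0.429 and Col6a3 from -0.047 to 0.469. Ratios ran from -0.164 to 0.119 for Col1a1 over Col1a2 (KO antimiR-21 against HET PBS), from -0.15 to 0.009 for Col3a1 over Col1a1 and from -0.118 to 0.027 for Col6a3 over Col6a1 (both against KO PBS). Col6a1 over Col6a2 kept its direction against KO PBS, from 0.248 to 0.293.

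Deviations of same-numbered libraries from their group means had r from -0.444 to 0.629, over 0.1 in 6 of 10 pairs. The pairs over 0.1 shared their Y-linked status and the other pairs differed in it. These r therefore cannot show whether replicate numbers pair the libraries. With the replicate block, 2 loci were higher in KO PBS than in HET PBS, 18 higher and 8 lower in KO antimiR-21 than in KO PBS, and 3 higher and 1 lower in KO antimiR-21 than in HET PBS, none of them one of the 10 collagens. The lowest collagen count in a library was 205.5, for Col8a1.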
